A study of Mus musculus with 15 samples.

Results

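The vascular genes of mouse inguinal white fat were followed through age and a drug treatment with 10 transcripts: the ligands Vegfa and Vegfb, their receptors Flt1 and Kdr, the angiopoietins Angpt1 and Angpt2 with their receptor Tek, and 3 genes of the endothelial cell, Cdh5, Eng and Vwf. They were taken by name, for their known roles, though with earlier results of these data known. They are 10 of the 24015 genes in the count table, and 10 of 10 passed the filter on low counts, which left 15288 genes for testing. The table holds RNA sequencing counts of polyA RNA from the inguinal pad of C57BL/6 mice. Mice were 2 months old and received vehicle (Young_Ctrl, n = 4) or CL (Young_CL, n = 4), or were 12 months old and received vehicle (Old_Ctrl, n = 3, replicates 1, 3 and 4, since replicate 2 was not analysed here) or CL (Old_CL, n = 4). In all 4 groups, the controls included, mice spent 2 weeks at thermoneutrality, a warm housing that lowers the need to make heat, and then got 5 days of intraperitoneal CL or vehicle. CL is spelled out as cardiolipin in the labels, but a β-adrenergic agonist commonly goes by the same letters, so the abbreviation is used and the compound is left unnamed. No label says that each library came from its own animal, so a p-value reflects the spread among these libraries alone, which may be technical.

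Fat grows and regresses together with its capillaries, which bring oxygen and lipid to adipocytes. Adipocytes and other cells secrete VEGF-A, the main growth signal for endothelial cells, which acts through the receptor VEGFR2 (Kdr), while VEGFR1 (Flt1) binds VEGF-A tightly, signals weakly and limits how much reaches VEGFR2. Angiopoietin 1, made largely by mural and stromal cells, activates the receptor Tie2 (Tek) and stabilises vessels, and angiopoietin 2, made by endothelial cells, acts on the same receptor mostly as an antagonist. VE-cadherin (Cdh5) holds endothelial junctions together, endoglin (Eng) is a co-receptor for BMP9 and TGF-β ligands, and von Willebrand factor (Vwf) is the clotting glycoprotein that endothelial cells store.

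Depth differed between libraries: Young_Ctrl held 7066687 to 14796440 counts, Young_CL 6115542 to 30621448, Old_Ctrl 6495373 to 51577001 and Old_CL 15723586 to 40235461. Levels are CPM, a gene's share of its library's counts, after TMM scaling. Adipocyte markers, 10 genes, were present in every group (summed level 18127 to 74461 CPM over the libraries). Skeletal muscle markers, 15 genes, summed to 2967 to 8926 CPM in Young_CL 1, 2 and 3, Old_Ctrl 3 and Old_CL 3, and to 68.3 to 465 CPM in the other libraries. B cell and lymph node markers, 12 genes, summed to 1733 to 2416 CPM in Young_Ctrl, 1078 to 1453 in Young_CL, 684 to 1277 in Old_Ctrl and 532 to 711 in Old_CL. Old_CL 1, 2 and 4 lay closer together than other pairs of libraries within a group. They differed by more than sampling noise (chi-square per degree of freedom 2.69 to 4.99), which separate preparations from the same animal could also do. They were kept as 3 samples, and whether they came from separate animals cannot be told. Because the tissue was sequenced in bulk, fewer cells of a type and less RNA per cell cannot be told apart in any value below.

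The promoters of 4 of the genes are shown because these genes were all higher at 12 than at 2 months under CL. They are the 250 bases before the annotated start in RefSeq on GRCm38.p6, 5′ to 3′ on the gene's own strand, and capitals mark GGAA or its reverse complement TTCC, the core letters bound by ETS factors, the transcription factor family best known in endothelial enhancers. The set of promoter windows used here held 6 of the 10 genes, and 4 of the 6 genes called in that comparison. Vwf and Angpt2, the other 2 called, were not in that set. The Vegfa window is chr17:46032378-46032627 (minus strand), that of Flt1 chr5:147726012-147726261 (minus strand), that of Kdr chr5:75978456-75978705 (minus strand) and that of Eng chr2:32646345-32646594 (plus strand).
Vegfa: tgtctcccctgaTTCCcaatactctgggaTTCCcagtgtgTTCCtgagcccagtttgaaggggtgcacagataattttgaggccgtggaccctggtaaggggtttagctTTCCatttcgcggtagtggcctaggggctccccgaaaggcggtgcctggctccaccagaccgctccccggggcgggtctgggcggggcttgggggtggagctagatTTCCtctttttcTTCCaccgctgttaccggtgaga
Flt1: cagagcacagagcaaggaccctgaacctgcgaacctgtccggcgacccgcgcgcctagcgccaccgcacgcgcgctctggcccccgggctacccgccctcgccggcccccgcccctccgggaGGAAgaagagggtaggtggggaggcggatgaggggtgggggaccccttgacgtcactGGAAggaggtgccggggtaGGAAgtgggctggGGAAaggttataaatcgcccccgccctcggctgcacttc
Kdr: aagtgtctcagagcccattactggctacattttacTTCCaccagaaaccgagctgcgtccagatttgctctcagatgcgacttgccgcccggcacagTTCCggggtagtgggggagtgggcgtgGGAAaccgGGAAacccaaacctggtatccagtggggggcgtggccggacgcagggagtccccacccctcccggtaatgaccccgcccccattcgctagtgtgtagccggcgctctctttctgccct
Eng: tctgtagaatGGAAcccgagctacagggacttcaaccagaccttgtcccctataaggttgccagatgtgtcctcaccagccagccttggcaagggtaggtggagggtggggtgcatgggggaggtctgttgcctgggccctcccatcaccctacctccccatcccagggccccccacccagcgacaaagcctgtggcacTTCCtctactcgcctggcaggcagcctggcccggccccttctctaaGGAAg
The motif was found 6 times before Vegfa, 4 times before Flt1, 4 times before Kdr and 3 times before Eng, counted on both strands. Of 32851 mouse promoter windows of the same length 93.4% hold it, with a median of 3 matches. The core of hypoxia response elements is written ACGTG or GCGTG. The letters ACGTG or their reverse complement CACGT were in none of the 4 windows and in 16.6% of all windows. GCGTG or its reverse complement CACGC was found 2 times before Kdr and 1 time before Flt1, was in neither the Vegfa nor the Eng window, and is in 28.2% of all windows.

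Per kilobase of exon, the ligand genes were the most abundant. Averaged over the 15 libraries, Vegfb stood at 99.0 and Vegfa at 98.6 CPM per kilobase, with ranges over the libraries (51.8 to 129 and 57.9 to 150.1) that cover each other. The junction gene Cdh5 (37.6) and Eng (34.8) came next and also overlapped. Kdr averaged 15.5 CPM per kilobase, Tek 8.56, Angpt1 6.06, Vwf 5.10 and Flt1 4.54, and the range of each of these neighbours overlapped the next. Angpt2 was the least abundant at 1.86 CPM per kilobase (1.15 to 2.63) and 33 to 446 counts per library.

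**Figure D1:**
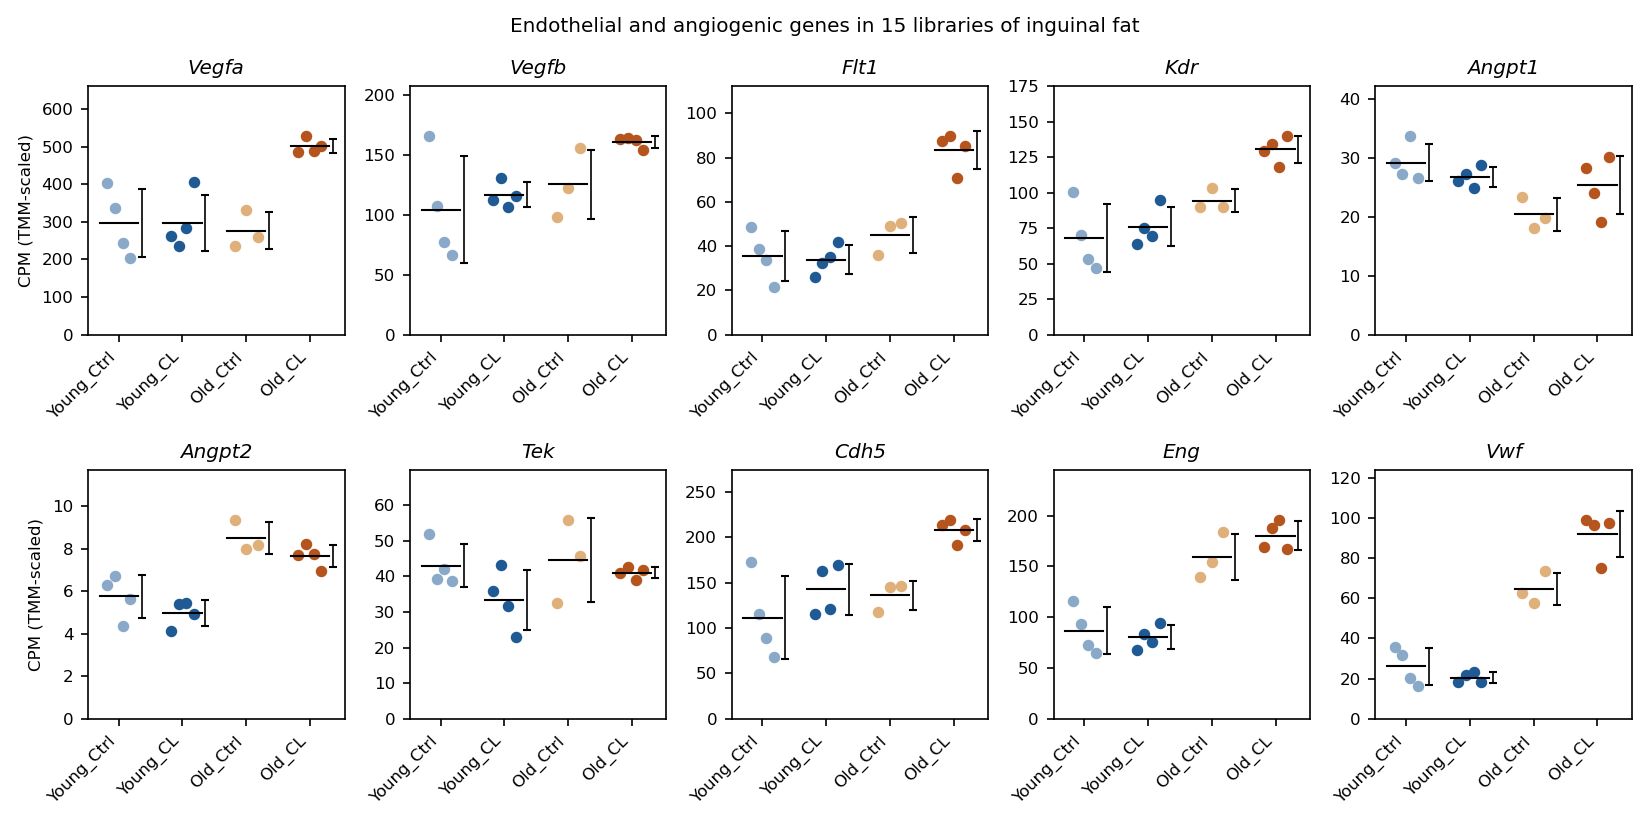
TMM-scaled CPM (y axis, linear) of the 10 genes in the 4 groups (x axis), with 1 point per library, bars at the group mean and error bars of 1 SD. The Old_CL points of Vegfa, Flt1, Cdh5, Kdr and Vwf lie above those of Old_Ctrl, and both groups of 12-month-old mice lie above both groups of 2-month-old mice for Eng, Vwf and Angpt2.

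CL against vehicle at 2 months asks how the treatment changes these transcripts in young fat. In this comparison 0 of the 10 genes passed the test (edgeR's quasi-likelihood test, Benjamini-Hochberg adjusted p under 0.05 over the 15288 genes), where 43.9% of all tested genes did. The count at an unadjusted p under 0.05 was also 0 (51.6% of all genes), and DESeq2 and limma-voom called 0 as well. No gene's libraries were separated by treatment, which was so for 34.1% of all genes. The median log2 change of the 10 was -0.08, against -0.07 over all genes, and their values ran from -0.35 (Tek) to 0.36 (Cdh5). This outcome rested on single libraries: without Young_Ctrl 1, which had the highest Vegfa, Vegfb, Flt1, Kdr, Tek, Cdh5, Eng and Vwf of its group, 3 genes were called higher (Cdh5 0.65, Vegfb 0.48 and Kdr 0.42). Without Young_Ctrl 4, Vwf was called lower (-0.52), and without Young_CL 2, Tek was called lower (-0.51).

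CL against vehicle at 12 months asks the same of older fat. CL-treated fat had more Vegfa, Flt1 and Cdh5 transcript than vehicle-treated fat, and 3 of the 10 genes were called higher and 0 lower, where 45.2% of all tested genes were called (23.1% higher). Kdr and Vwf were also higher in each Old_CL than in each Old_Ctrl library, so that 5 genes did not overlap, all higher with CL. Over all genes 52.8% did not overlap. The median log2 change of the 10 was 0.41, against -0.01 over all genes. For calls in either direction, the share among the 10 was thus not above that of the transcriptome. All 3 calls were higher, and whether 3 of 10 differs from the 23.1% called higher was not tested.

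Age under vehicle asks how the pad differs between 2 and 12 months without treatment. Vwf, Eng and Angpt2 were higher and Angpt1 lower at 12 months, so 3 of the 10 genes were called higher and 1 lower, where 27.2% of all tested genes were called (15.1% higher and 12.2% lower). The same 4 genes had libraries that did not overlap, which held for 27.1% of all genes. The median log2 change of the 10 was 0.33, against 0.03 over all genes. The count was 8 (7 higher and 1 lower) without Young_Ctrl 1, when Vegfb, Flt1, Kdr and Cdh5 passed too. It was 2, Vwf and Eng, without Young_Ctrl 3 or without Old_Ctrl 4.

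Age under CL asks how treated fat differs between 2 and 12 months. Vwf, Flt1, Eng, Kdr, Vegfa and Angpt2 were higher at 12 months, which makes 6 of the 10 genes called higher and 0 lower, where 40.0% of all tested genes were called (20.5% higher). In 8 of the 10, Vegfb and Cdh5 included, every Old_CL library was above every Young_CL library, and 44.9% of all genes did not overlap in either direction. The median log2 change of the 10 was 0.70, against -0.01 over all genes. Of the 4 Young_CL libraries 3 were rich in skeletal muscle transcripts. With the 5 muscle-rich libraries left out, which leaves 1 Young_CL library whose spread is assumed to be like that of the other groups, 2 genes were called, Vwf (higher) and Tek (0.84, adjusted p = 0.025 by edgeR).

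**Figure D2:**
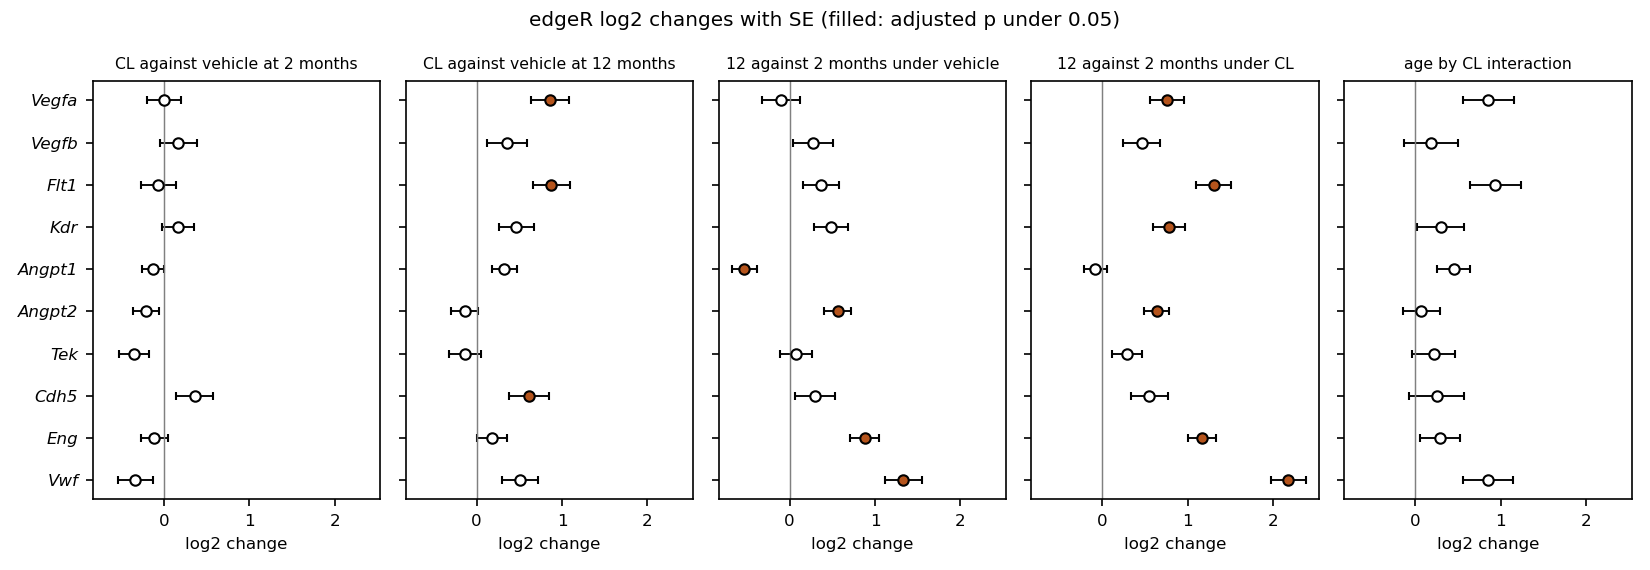
Log2 changes of the 10 genes with bars of 1 SE in the 4 pairwise comparisons and the age by CL interaction, from edgeR, with the genes called at adjusted p under 0.05 marked. Values at 2 months scatter around 0 for CL against vehicle, and the values of age under CL reach 2.18 for Vwf.

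Among the ligands, Vegfa was higher with CL at 12 months. It stood at 403, 337, 244 and 204 CPM in Young_Ctrl 1 to 4 and at 262, 237, 283 and 406 CPM in Young_CL 1 to 4. It stood at 237, 333 and 260.4 CPM in Old_Ctrl 1, 3 and 4 and at 487, 529, 488 and 502 CPM in Old_CL 1 to 4. All 4 Old_CL libraries exceeded the 11 others, while the other 3 groups overlapped. The means were 297 ± 89.8, 297 ± 75.1, 277 ± 49.9 and 501 ± 19.6 CPM in that order of groups (SD). CL at 12 months raised it 1.81-fold (log2 change 0.86, SE 0.22, edgeR adjusted p = 0.0056), and the change at 2 months was 0.00 (SE 0.20, edgeR adjusted p = 0.999). Old_CL also exceeded Young_CL (log2 change 0.76, SE 0.20, edgeR adjusted p = 0.0079), a call that was lost without the muscle-rich libraries (0.28, adjusted p = 0.58), when the Young_CL library left was replicate 4, at 406 CPM. Under vehicle the age difference was -0.10 (edgeR adjusted p = 0.76).

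Vegfb, a VEGFR1 ligand whose loss has little effect on vessel growth in most tissues, was not called. It stood at 166, 107, 77.3 and 66.3 CPM in Young_Ctrl 1 to 4, 113, 131, 107 and 116 in Young_CL 1 to 4, 98.4, 122 and 156 in Old_Ctrl 1, 3 and 4. In Old_CL 1 to 4 it stood at 163, 164, 162 and 154 CPM. The Old_CL libraries were tightly grouped and lay above all Young_CL libraries, but Young_Ctrl 1 was as high. It was called in 0 of the 5 comparisons, and its log2 changes ran from 0.17 (CL at 2 months) to 0.46 (age under CL, SE 0.22, edgeR adjusted p = 0.10).

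The receptor Flt1 had 48.5, 38.6, 33.5 and 21.5 CPM in Young_Ctrl 1 to 4 and 25.9, 32.6, 35.3 and 41.9 CPM in Young_CL 1 to 4. Among the 12-month libraries it had 35.9, 48.9 and 50.6 CPM in Old_Ctrl 1, 3 and 4 and 87.4, 89.9, 71.0 and 85.3 CPM in Old_CL 1 to 4. As with Vegfa, the 4 Old_CL libraries stood above all others. CL at 12 months raised Flt1 1.83-fold (log2 change 0.87, SE 0.22, edgeR adjusted p = 0.0045), and Old_CL was 2.47-fold above Young_CL (log2 change 1.30, SE 0.20, edgeR adjusted p = 2.1e-04). The age difference under CL was 1.03 (adjusted p = 0.070) without the muscle-rich libraries. In young fat the change with CL was -0.06 (edgeR adjusted p = 0.83).

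Kdr, the main signalling receptor, stood at 101, 70.5, 53.0 and 47.1 CPM in Young_Ctrl 1 to 4 and at 63.5, 75.1, 69.8 and 95.1 CPM in Young_CL 1 to 4. In 12-month-old mice it stood at 89.8, 103 and 90.0 CPM in Old_Ctrl 1, 3 and 4 and at 129, 134, 118 and 140.0 CPM in Old_CL 1 to 4. The Old_CL libraries were again above all others. The age difference under CL passed the test (log2 change 0.78, SE 0.19, edgeR adjusted p = 0.0043), though not without the muscle-rich libraries (0.47, adjusted p = 0.36). The values for CL at 12 months (0.46, SE 0.20, edgeR adjusted p = 0.074) and for age under vehicle (0.49, SE 0.20, edgeR adjusted p = 0.083) did not pass.

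In the angiopoietin pair, the antagonist rose and the agonist fell with age in vehicle-treated mice. Angpt1 stood at 29.2, 27.3, 33.8 and 26.7 CPM in Young_Ctrl 1 to 4 and at 23.5, 18.1 and 19.8 CPM in Old_Ctrl 1, 3 and 4. Angpt2 stood at 6.31, 6.71, 4.38 and 5.62 CPM in the same Young_Ctrl libraries and at 9.37, 8.0 and 8.18 CPM in the same Old_Ctrl libraries. The groups overlapped for neither gene. Angpt1 fell by 0.53 on the log2 scale (SE 0.15, edgeR adjusted p = 0.016) and Angpt2 rose by 0.56 (SE 0.16, edgeR adjusted p = 0.016). Both calls were lost without Young_Ctrl 3 (-0.45, adjusted p = 0.054, and 0.45, adjusted p = 0.056) and without Old_Ctrl 4 (-0.52, adjusted p = 0.065, and 0.59, adjusted p = 0.051), and that of Angpt1 also without Old_Ctrl 3 (-0.45, adjusted p = 0.060).

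Under CL, Angpt2 was higher at 12 months and Angpt1 was not called. Angpt1 stood at 26.2, 27.3, 24.9 and 28.9 CPM in Young_CL 1 to 4 and at 28.3, 24.1, 19.2 and 30.2 CPM in Old_CL 1 to 4. These ranges covered each other (log2 change with age -0.08, SE 0.13, edgeR adjusted p = 0.65). Angpt2 stood at 4.11, 5.4, 5.47 and 4.93 CPM in Young_CL 1 to 4 and at 7.70, 8.21, 7.76 and 6.95 CPM in Old_CL 1 to 4. It was higher at 12 months in every library (log2 change 0.63, SE 0.15, edgeR adjusted p = 0.0033). CL itself gave no call for either gene at either age, with log2 changes of -0.12 and 0.32 for Angpt1 and -0.21 and -0.14 for Angpt2 at 2 and 12 months. The value of Angpt1 at 12 months passed without Old_Ctrl 1 (0.42, adjusted p = 0.049) and without Old_CL 3 (0.44, adjusted p = 0.012).

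Their receptor Tek stood at 52, 39.3, 41.9 and 38.8 CPM in Young_Ctrl 1 to 4, 35.8, 43.2, 31.6 and 22.9 in Young_CL 1 to 4, 32.4, 55.9 and 45.7 in Old_Ctrl 1, 3 and 4. In Old_CL 1 to 4 it stood at 40.9, 42.7, 38.9 and 41.8 CPM. All 4 groups overlapped, and Tek was called in 0 of the 5 comparisons. Its lowest value was in Young_CL 4, the library of its group with few muscle transcripts. With the muscle-rich libraries left out CL lowered Tek at 2 months (-0.91, adjusted p = 0.0093), a comparison that then has 1 CL library.

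**Figure D3:**
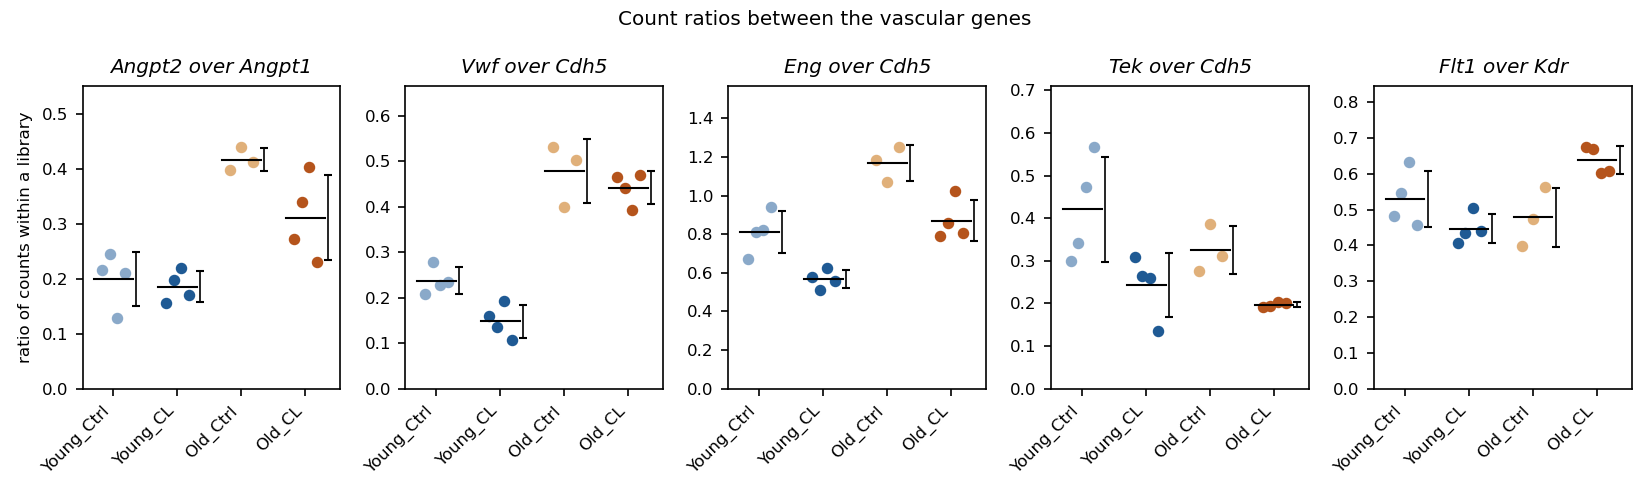
Ratios of counts between pairs of the genes (y axis, no unit) in each library, by group (x axis), with bars at the mean and error bars of 1 SD. Angpt2 over Angpt1 and Vwf over Cdh5 are higher in each library of the 12-month-old mice than in each library of the 2-month-old mice with the same treatment.

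Of the endothelial genes, Vwf and Eng were higher with age and Cdh5 was higher with CL at 12 months. Vwf stood at 35.9, 31.9, 20.2 and 16.1 CPM in Young_Ctrl 1 to 4 and at 18.4, 21.9, 23.4 and 18.2 CPM in Young_CL 1 to 4. At 12 months it reached 62.5, 57.8 and 73.5 CPM in Old_Ctrl 1, 3 and 4 and 99.1, 96.6, 75.1 and 97.7 CPM in Old_CL 1 to 4. Every library of the 12-month-old mice was above every library of the 2-month-old mice. The rise with age was 2.52-fold under vehicle (log2 change 1.33, SE 0.21, edgeR adjusted p = 0.0010) and 4.53-fold under CL (log2 change 2.18, SE 0.21, edgeR adjusted p = 3.0e-06). The second of these was called in 19 of 19 alternative settings. CL at 12 months gave 0.51 (SE 0.21, edgeR adjusted p = 0.059), which passed without Old_CL 3 (0.60, adjusted p = 0.042), and CL at 2 months gave -0.34 (edgeR adjusted p = 0.19).

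Eng stood at 116, 93.5, 72.8 and 64.3 CPM in Young_Ctrl 1 to 4 and at 67.2, 83.3, 75.9 and 94.5 CPM in Young_CL 1 to 4. It stood at 139, 155 and 183 CPM in Old_Ctrl 1, 3 and 4 and at 169, 188, 196 and 168 CPM in Old_CL 1 to 4. Age split the libraries without overlap and CL did not split them. Eng rose with age 1.84-fold under vehicle (log2 change 0.88, SE 0.17, edgeR adjusted p = 0.0028) and 2.25-fold under CL (log2 change 1.17, SE 0.16, edgeR adjusted p = 7.8e-05). Without the muscle-rich libraries the rise under CL was 0.85 (adjusted p = 0.073). CL against vehicle gave -0.11 at 2 months and 0.18 at 12 months, with edgeR adjusted p = 0.61 and 0.41.

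Cdh5 stood at 173, 115, 88.6 and 68.3 CPM in Young_Ctrl 1 to 4 and at 116, 163, 121 and 169.7 CPM in Young_CL 1 to 4. It stood at 118, 145 and 146 CPM in Old_Ctrl 1, 3 and 4 and at 213, 219, 192 and 208 CPM in Old_CL 1 to 4. The Old_CL libraries were the highest of the 15, and the other groups overlapped. Cdh5 was higher with CL at 12 months (1.53-fold, log2 change 0.61, SE 0.24, edgeR adjusted p = 0.046). That call lies close to the threshold: it was lost in 13 of 18 alternatives, among them each of the 7 fits that left out a library of the 2 groups (log2 changes 0.52 to 0.66, adjusted p = 0.057 to 0.15). The age difference under CL was 0.55 (SE 0.22, edgeR adjusted p = 0.055).

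The age by CL interaction asks whether the effect of CL differs between the ages. Here 0 of the 10 genes passed edgeR's test, where 7.08% of all tested genes did (3.31% higher and 3.77% lower). Unadjusted p was under 0.05 for 4 of the 10 genes and for 26.5% of all genes. All 10 values were positive, meaning a more positive CL effect at 12 months, where 48.3% of all genes were positive. The median of the 10 was 0.29, against -0.02 over all genes. The highest were Flt1 at 0.94 (SE 0.30, edgeR adjusted p = 0.068), Vegfa at 0.86 (SE 0.30, edgeR adjusted p = 0.089), Vwf at 0.85 (SE 0.29, edgeR adjusted p = 0.090) and Angpt1 at 0.45 (SE 0.20, edgeR adjusted p = 0.16). DESeq2 called 3 of them, Flt1 (adjusted p = 0.024), Vegfa (0.039) and Vwf (0.046), and limma-voom called 0. Without Young_Ctrl 4 edgeR called the same 3 (1.12, 1.0 and 1.02), and without Young_CL 4 it called Flt1 (1.05) and Vegfa (1.04). The different outcomes at 2 and 12 months were thus not shown to differ by edgeR with all libraries.

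Ratios between the genes do not depend on how libraries are scaled, and these pairs were chosen after the values were seen, so no test is given. Angpt2 over Angpt1 was 0.130 to 0.245 in Young_Ctrl, 0.157 to 0.220 in Young_CL, 0.399 to 0.442 in Old_Ctrl and 0.230 to 0.405 in Old_CL. At each treatment the ratio was higher in all 12-month libraries (mean log2 differences 1.10 under vehicle and 0.72 under CL). Vwf over Cdh5 was 0.207 to 0.277 in Young_Ctrl, 0.107 to 0.193 in Young_CL, 0.400 to 0.532 in Old_Ctrl and 0.392 to 0.470 in Old_CL. It was higher with age in every library at both treatments (1.01 and 1.60) and lower with CL in every library at 2 months (-0.70). Relative to Cdh5, Eng was higher with age (0.53 and 0.61) and lower with CL at both ages (-0.51 and -0.43), again without overlap. Flt1 over Kdr, the weak over the strong VEGF-A receptor, was 0.601 to 0.676 in Old_CL and 0.400 to 0.562 in Old_Ctrl. It was 0.457 to 0.633 in Young_Ctrl, which overlaps Old_CL, and 0.408 to 0.506 in Young_CL. Vegfa over Vegfb was 2.98 to 3.27 in Old_CL and 1.67 to 2.72 in Old_Ctrl. At 2 months it was 2.43 to 3.16 in Young_Ctrl and 1.81 to 3.50 in Young_CL, and both ranges overlap that of Old_CL.

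Genes that work beside these were counted by list. Of 7 other members of the VEGF family and its co-receptors, 3 were higher and 0 lower with CL at 2 months, where 43.9% of all genes were called: Figf, which encodes the lymphatic growth factor VEGF-D (0.53), and the co-receptors Nrp2 (0.42) and Nrp1 (0.33). At 12 months 2 were higher, the lymphatic receptor Flt4 (0.73) and its ligand Vegfc (0.46), and 2 were lower, Pgf (-0.68) and Figf (-0.41), where 45.2% of all genes were called. Figf thus went up with CL at 2 months and down at 12 months (23.8 ± 3.05, 34.1 ± 6.61, 40.3 ± 5.14 and 30.5 ± 0.951 CPM in Young_Ctrl, Young_CL, Old_Ctrl and Old_CL, SD), and its interaction passed the test (-0.93, SE 0.19, edgeR adjusted p = 0.012). Under vehicle Figf (0.77), Nrp1 (0.44) and Nrp2 (0.36) were higher at 12 months, and under CL Flt4 (1.14), Vegfc (0.60) and Nrp1 (0.34) were (3 of 7 each, where 27.2% and 40.0% of all genes were called). No gene of the family was called with age under CL without the muscle-rich libraries. Of 5 other genes of the angiopoietin and Tie axis, 1 was lower with CL at each age, Angpt4, a scarce Tie2 ligand (-1.95 at 2 and -1.86 at 12 months). Its call held in 13 of 17 alternatives at 2 months, being lost in limma-voom and without Young_Ctrl 2, Young_CL 2 or the muscle-rich libraries. At 12 months it held in 16 of 18, being lost without Old_Ctrl 4 and with Old_CL 1, 2 and 4 summed. The phosphatase gene Ptprb, whose product removes phosphate from Tie2, was higher with age under CL (1.13, edgeR adjusted p = 7.1e-04), though not called without the muscle-rich libraries. In the VEGF family the call of Nrp1 with CL at 2 months held in 12 of 18 alternatives, those of Figf and Flt4 with CL at 12 months in 12 and 9 of 18, and that of Nrp2 with age under vehicle in 7 of 17. Tie1, which pairs with Tie2, was called in 0 of the 5 comparisons, with log2 changes from 0.09 to 0.36.

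Independent markers of endothelial identity, 22 genes with all 22 tested, were counted in the same comparisons. With CL 2 were higher and 2 lower at 2 months (median log2 change -0.10), and 2 were higher and 0 lower at 12 months (median 0.15). With age 7 were higher and 1 lower under vehicle (median 0.46), and 14 were higher and 1 lower under CL (median 0.62). Over all genes the 4 medians were -0.07, -0.01, 0.03 and -0.01, and 43.9%, 45.2%, 27.2% and 40.0% of genes were called. Nos3, the endothelial nitric oxide synthase, rose with CL at both ages (41.8 ± 12.5 to 103 ± 4.99 CPM at 2 months, log2 change 1.31, edgeR adjusted p = 1.0e-05, and 46.2 ± 5.11 to 145 ± 8.88 CPM at 12 months, log2 change 1.64, edgeR adjusted p = 1.3e-05). Pecam1, a pan-endothelial adhesion gene, gave -0.17 and 0.12 with CL at 2 and 12 months and was called with age under CL (0.39, edgeR adjusted p = 0.0053). The transcription factor genes Sox17 (1.05) and Sox18 (0.96) rose with age under vehicle, and Mmrn2 (1.02), Gpr116 (1.44) and Plvap (0.67) rose with age under CL. Without the muscle-rich libraries the count with age under CL was 1 higher and 0 lower, as it was with the lymph node covariate. Without 1 library at a time the number called under vehicle ran from 3 to 16.

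Genes of Notch and BMP signalling and other angiogenic factors were counted too. Of 12 genes of Notch signalling and of arterial or venous identity, 8 were higher and 0 lower with age under CL. Among them were Hey2 (1.14), Notch4 (0.85), Notch1 (0.56) and Jag1 (0.38), and 40.0% of all genes were called (20.5% higher). That count was 0 higher and 0 lower without the muscle-rich libraries and 1 higher with the lymph node covariate. Under vehicle 1 of the 12 was lower with age, Hes1 (-0.55), and 0 were higher, where 27.2% of all genes were called. With CL 0 of the 12 were higher and 3 lower at 2 months, and 3 were higher and 1 lower at 12 months. Of 10 genes around the receptors that endoglin serves, 5 were higher and 1 lower with age under vehicle, with Acvrl1, the endothelial receptor ALK1, at 0.58 and the BMP-binding protein gene Bmper at 1.30 (27.2% of all genes were called). Of the same 10 genes, 5 were higher and 2 lower with age under CL, where 40.0% of all genes were called. CL gave 0 higher and 4 lower at 2 months and 0 higher and 2 lower at 12 months (43.9% and 45.2% of all genes were called). Acvrl1 was also higher with age under CL (0.81) and was lower with CL at 2 months (-0.36), a call that held in 10 of 18 alternatives. Of 19 other angiogenic ligands and receptors 7 were higher and 0 lower with age under vehicle, where 15.1% of all genes were higher. With age under CL 7 were higher and 4 lower, where 40.0% of all genes were called. With CL 3 were higher and 5 lower at 2 months, and 3 higher and 5 lower at 12 months (43.9% and 45.2% of all genes were called). Thbs1 and Thbs2, which encode angiogenesis inhibitors, rose with age under vehicle (1.29 and 2.12) and under CL (1.82 and 2.40). Apln, a peptide ligand of endothelial cells, rose with CL at 2 months from 5.37 ± 2.16 to 17.4 ± 2.00 CPM (log2 change 1.74, edgeR adjusted p = 0.0013).

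Hypoxia-inducible genes, of which Vegfa is a classical example, and regulators of the hypoxia response were counted in 1 list, and they moved in both directions. Of 17 such targets and regulators other than Vegfa, 6 were higher and 6 lower with CL at 2 months, where 21.7% of all genes were higher and 22.1% lower. The glycolytic genes Pgk1 (1.74) and Ldha (1.64) were higher and the glucose transporter gene Slc2a1 (-0.68) and Ndrg1 (-0.94) lower. At 12 months 5 were higher and 2 lower (23.1% and 22.2% of all genes), with Ldha at 0.97, Pgk1 at 0.62 and Bnip3 at 0.85. With age 1 was higher and 4 lower under vehicle (15.1% and 12.2% of all genes). Under CL 4 were higher and 7 lower with age (20.5% and 19.4% of all genes). Epas1, which encodes HIF-2α, an oxygen-regulated factor abundant in endothelium, was among the higher ones under vehicle (0.78, edgeR adjusted p = 0.0072) and under CL (0.87, edgeR adjusted p = 0.0011). Hif1a was called in 0 of the 5 comparisons, with log2 changes from -0.16 to 0.14.

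Mural cells, the pericytes and smooth muscle cells that wrap vessels, were followed with 12 genes. With CL 1 was higher and 3 lower at 2 months (median log2 change -0.13), and 6 were higher and 0 lower at 12 months (median 0.48). With age 4 were higher and 0 lower under vehicle (median 0.40), and 7 were higher and 0 lower under CL (median 0.89). Over all genes 21.7%, 23.1%, 15.1% and 20.5% were called higher in these 4 comparisons. With age under CL 5 were higher without the muscle-rich libraries, and with the lymph node covariate 1 was higher with CL at 12 months. Acta2, smooth muscle actin, stood at 37.1 ± 10.4, 25.2 ± 4.20, 83.7 ± 5.65 and 171.9 ± 39.9 CPM in Young_Ctrl, Young_CL, Old_Ctrl and Old_CL (SD). It fell with CL at 2 months (-0.56, a call that held in 11 of 18 alternatives) and rose with CL at 12 months (1.04, edgeR adjusted p = 0.0012), and its interaction passed the test (1.60, SE 0.29, edgeR adjusted p = 0.0063). Cnn1, a smooth muscle contractile gene, rose with age by 2.28 under vehicle and 3.20 under CL on the log2 scale. Of 6 tested lymphatic endothelial markers 1 was higher and 2 lower with CL at 12 months, Pdpn (-1.47) and Lyve1 (-1.56), genes also expressed outside lymphatic vessels, being the lower ones (45.2% of all genes were called).

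**Figure D4:**
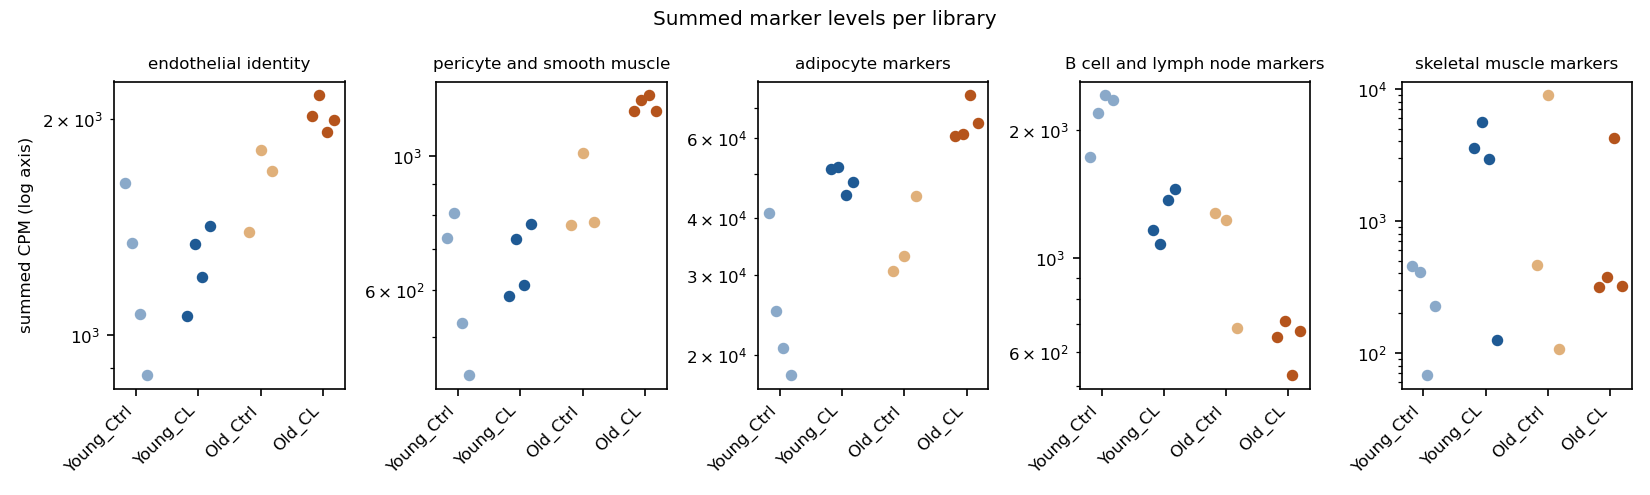
Summed CPM (y axis, log scale) of marker genes of several cell types in each library, by group (x axis). Endothelial, mural and adipocyte sums are highest in Old_CL, and the skeletal muscle sum lies between 2967 and 8926 CPM in 5 of the 15 libraries.

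Markers of other cell types also differed between the groups, and not all of them followed the vascular genes. The endothelial sum was 881 to 1628 CPM in Young_Ctrl, 1062 to 1420 in Young_CL, 1389 to 1808 in Old_Ctrl and 1915 to 2154 in Old_CL, and the mural sum 433 to 803, 585 to 772, 768 to 1011 and 1188 to 1262 CPM in the same order. The adipocyte sum ran from 18127 to 41085, 45085 to 51743, 30681 to 44827 and 60756 to 74461 CPM, and the sum of 5 erythrocyte genes from 139 to 208, 173 to 277, 192 to 436 and 517 to 644 CPM. Old_CL was thus highest in all 4 sums and, as given above, lowest by its mean in the B cell and lymph node sum, where Old_Ctrl 4 (684 CPM) fell within its range. Macrophage markers (10 genes, 2506 to 4814 CPM) and stromal markers (10 genes, 4912 to 11551 CPM) had their highest sums in Old_Ctrl. Other libraries fell within these ranges: Old_CL 3 (2588 CPM) for macrophage markers, and Young_Ctrl 2 (5657 CPM) and Young_CL 2 (5674 CPM) for stromal markers. T cell markers (10 genes) fell from 746 to 1362 CPM in Young_Ctrl to 180 to 300 CPM in Old_CL. No defining marker of these lists was at 0 in every library of a group. Within Young_Ctrl, replicate 1, with the highest endothelial genes, had the lowest lymph node sum (1733 CPM) of its group. It also had the highest adipocyte sum (41085 CPM) and the lowest T cell sum (746 CPM) of that group. With the mean lymph node marker level as a covariate, which differs between the groups itself, edgeR called 0 of the 10 genes for CL at 12 months, 0 for age under vehicle and 1, Vwf, for age under CL. Vegfa then changed by 0.87 with CL at 12 months (adjusted p = 0.059) and Flt1 by 0.75 (adjusted p = 0.085), and with age under vehicle Vwf changed by 0.92 (adjusted p = 0.39) and Eng by 0.42 (adjusted p = 0.60). The part of the adipocyte and erythrocyte sums in these results was not tested.

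Across the 15 libraries, the genes whose centred log2 CPM stayed closest to Vegfa were Firre, Mical3, Elmod3, Nek4 and Phka2, with root mean square differences of 0.146 to 0.168 among 10380 genes compared. Closest to Cdh5 were Rgcc, Enpp5, Nova2, Cdc42bpa and Nedd4 (0.146 to 0.165). Among the 10 genes themselves the nearest pairs were Kdr with Cdh5 (0.168) and Vegfb with Cdh5 (0.170), and the farthest was Angpt1 with Vwf (1.09). These distances share libraries and scaling and are given as a description.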

How the data were processed

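RNA from 15 inguinal fat samples was sequenced after Trizol and PureLink extraction and TruSeq polyA library preparation, per the labels' protocols. STAR alignment to mm9 and gene counting with featureCounts of Subread are named in the submitters' processing notes, and versions and the strand setting are not given in the sources used here, so reads of overlapping antisense genes cannot be told apart. The values used are the raw counts as deposited by the authors, 1 table of 24015 genes.

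Libraries were scaled by TMM, genes were kept with filterByExpr by group (15288 genes), and edgeR 4.0.16 (R 4.3.3) gave the quasi-likelihood F tests (robust, 1 mean per group, all 15 libraries, 5 comparisons), called at a Benjamini-Hochberg adjusted p under 0.05. SEs were obtained by dividing the size of each log2 change by the root of its F statistic. Alternatives were RLE and upper-quartile factors, DESeq2 1.42.0, limma-voom (limma 3.58.1), no filter on low counts, a stricter one (3 libraries at 1 CPM or more, mean count 10 or more), only the groups compared, a replicate block, and leaving out each library. Added after seeing the data were 5 muscle-rich libraries left out, Old_CL 1, 2 and 4 summed, and a lymph node marker covariate. The procedure was tested on simulated counts.

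Exon lengths per kilobase come from GENCODE gene models on GRCm38, not mm9. The 10 genes and the lists were chosen with earlier results of these data known. Named are the 10 genes, of each list up to 4 tested members with the smallest p in a comparison, 12 direct partners of the 10 genes, and the 5 nearest genes in pattern to Vegfa and to Cdh5.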

Additional observations from a re-analysis of the deposited data

Results flagged for a closer look

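Among the 10 genes, 30 groups of 4 libraries were examined for a library far from the others, and 1 stood out: Vwf in Old_CL 3 was at 75.1 CPM, against 96.6 to 99.1 CPM in the other 3. Chance gives this in about 1 in 20 groups. Old_CL 3 is also the library of its group rich in skeletal muscle transcripts.

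Of 114 genes in the vascular and hypoxia lists, 15 had a CL effect that differed between the ages by edgeR's interaction test, where 7.08% of all tested genes did, 10 more positive and 5 more negative at 12 months. In the VEGF family it was Figf (VEGF-D), at -0.93. In Notch signalling they were Notch1 (0.65) and its endothelial ligand gene Dll4 (0.94). Among other angiogenic genes Fgf1, a fibroblast growth factor, was at 1.58, Vash1, which encodes the angiogenesis inhibitor vasohibin, at -1.10, and the peptide genes Apln and Adm at -2.11 and -0.90. Of hypoxia-related genes Pgk1 was at -1.12, Slc2a1 at 0.56, Arnt, the partner subunit of HIF, at 0.44 and Ndrg1 at 0.61. The mural genes were Acta2 (1.60), Mcam (1.20), Tagln (0.67) and Myh11 (1.21).

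Leaving out a library at a time ended none of these calls for Figf, Fgf1, Vash1, Pgk1, Slc2a1, Acta2 and Mcam. It ended that of Apln in 2 of 15 such fits, of Tagln in 6, of Notch1 in 9, of Dll4, Arnt, Ndrg1 and Myh11 in 11 each and of Adm in 12. Without the muscle-rich libraries the calls of Pgk1 and Ndrg1 were kept and those of the other genes were lost.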

How the results depend on the processing

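Of the changes called among the 10 genes, Vwf with age under CL was called in 19 of 19 alternatives, Vegfa and Flt1 with CL at 12 months in 17 of 18, and Vwf and Eng with age under vehicle in 16 of 17. The fragile calls were Cdh5 with CL at 12 months (5 of 18), Angpt2 and Angpt1 with age under vehicle (12 and 13 of 17) and Vegfa with age under CL (16 of 19). The alternatives that removed most were the lymph node covariate and the left-out muscle-rich libraries. Angpt2 had the fewest counts (33 to 446 per library). No scaling moved the median of all genes by more than 0.1 on the log2 scale, and why the calls changed was not tested.

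Counts moved by more than 1.5 times as follows. For the interaction DESeq2 called 1779 genes and 3 of the 10. Fitting only the groups compared called 5 of the 10 for CL at 12 months and 1877 genes for age under vehicle. Without the muscle-rich libraries 2974 genes and 1 of the 10 were called for CL at 2 months, 1869 genes and 2 of the 10 for age under CL, and 203 genes for the interaction. With Old_CL 1, 2 and 4 summed 3818 genes were called for age under CL and 139 for the interaction. With the lymph node covariate 1676 genes were called for CL at 2 months, 3698 genes and 0 of the 10 for CL at 12 months, 32 genes and 0 of the 10 for age under vehicle, and 1964 genes and 1 of the 10 for age under CL. Against these stand 6706, 6916, 4162, 6108 and 1083 genes in the 5 comparisons with the settings of the report. Leaving out a library gave 0 to 3 of the 10 for CL at 2 months, 1739 to 5851 genes and 2 to 8 of the 10 for age under vehicle, and 431 to 2070 genes and 0 to 3 of the 10 for the interaction.

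With the replicate number as a block, 641 genes were called for the interaction, and of the 10 genes 0, 2, 4, 6 and 0 were called in the 5 comparisons. Of 21 pairs of samples that share a number, 6 had a correlation over 0.1 between their deviations from the group means (range -0.35 to 0.34). Pairs with different numbers were not compared, so these values cannot decide whether the numbers pair the samples.

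Sign changes occurred only among uncalled values. For CL at 2 months Vegfa was -0.0096 with RLE factors, -0.081 with upper-quartile factors, -0.0088 with DESeq2, -0.0035 with no filter and -0.00086 with the stricter filter. Leaving out a library gave Vegfa -0.19 to 0.18, Flt1 -0.25 to 0.12 and Eng -0.23 to 0.063 in that comparison, Tek -0.31 to 0.058 for CL at 12 months, Vegfa -0.25 to 0.082 and Tek -0.12 to 0.25 for age under vehicle, and Angpt1 -0.18 to 0.036 for age under CL. For the interaction it gave Vegfb -0.13 to 0.37, Cdh5 -0.045 to 0.42 and Angpt2 -0.023 to 0.19. Without the muscle-rich libraries Flt1 was 0.25 and Eng 0.13 for CL at 2 months, Tek 0.085 for CL at 12 months and -0.16 for age under vehicle, and Eng -0.011 for the interaction. With the lymph node covariate Vegfb was -0.39 and Angpt1 0.042 for CL at 2 months, Vegfb -0.17 and Eng -0.11 for CL at 12 months, Vegfb -0.55, Tek -0.30 and Cdh5 -0.14 for age under vehicle, and Vegfb -0.33, Angpt1 0.12 and Tek -0.052 for age under CL. Without the muscle-rich libraries the log2 ratio of Vegfa over Vegfb was 0.25 for CL at 2 months and -0.15 for age under CL, and that of Tek over Cdh5 was 0.54 for age under CL.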
